A study of Mus musculus with 98 samples.

Results

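CapFb3 is one of the subtypes into which the authors divided the nonepithelial stroma (NETS) of the mouse thymus, a capsular fibroblast subtype that carries transcripts of *Wt1*, the Wilms tumour gene of kidney and gonad development, whose transcription factor is also made in mesothelium. Its members are the cells that the deposited annotation of the age series names CapFb3, and they number 1226 of 36208 labelled cells (3.39%). The age series holds 8 libraries of Ter119-CD45-EpCAM- cells sorted from thymi of wild-type (WT) C57BL/6 mice, with E12.5 and E13.5 (embryonic days) represented by 1 library per age, and E16.5, birth (P0) and 4 weeks (W4) by 2. Cells of E12.5 and E13.5 were pooled from several embryos, whereas 2 thymi gave the libraries of each later age. 66 further CapFb3 cells stand among 21451 cells of Ter119-CD45- stroma from newborn mice, 3 that carry 1 null allele each of *Tbx1* and *Crkl* (Tbx1+/-Crkl+/-) and 3 WT littermates, and these cells had been fixed with RNAprotect. The *Tbx1* allele carries LacZ and the *Crkl* allele was a floxed allele deleted through Meox2-Cre. Bulk RNA-seq of populations sorted from WT thymi at P0 and W4, with 6 libraries per population and age, served as independent samples, and their gp38+CD26+ gate (podoplanin and DPP4 positive) is the one the study used for capsular fibroblasts.

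The thymic capsule is a sheath of fibroblasts and matrix around the lobes, and its outer face is covered by mesothelium, a flat epithelium derived from mesoderm. Mesothelial cells make keratins, mesothelin and uroplakins, and in several organs cells of a mesothelial lineage turn into fibroblasts during development. Capsular fibroblasts make collagens and small leucine-rich proteoglycans, and they secrete growth factors that act on the epithelium and the vessels beneath. Where in the tissue the CapFb3 cells lay was not measured in these files.

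CapFb3 held 83 cells in the E12.5 library and 251 in that of E13.5. At E16.5 it held 75 and 86 cells in replicates 1 and 2, at P0 435 cells, 274 of them in replicate 1, and at W4 79 and 217. The summed cells of a library carried 1097119 to 3493129 UMIs (unique molecular identifiers, each standing for 1 captured transcript), and the median cell 10012 to 16416.5. Whole libraries held 28583048 to 93040640 UMIs. Of the cell barcodes, 0 to 14 were shared by any pair of libraries (at most 0.275% of the smaller library), and 0 of these were CapFb3 in both. Levels below are CPM, counts per 1000000 UMIs, taken from the sum over all cells that share a label and a library, and the libraries are the replicates. The labels do not say whether the replicates came from separate mice at each later age, so that p-values measure the spread between libraries, which may be partly technical.

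*Igf1*, *Gdf10*, *Olfml3* and *Wt1* were taken as the markers of CapFb3. The study lists *Igf1*, *Dcn* and *Cpxm1* as its top genes over all ages. At W4 *Dcn*, at 18839 CPM, was higher in CapFb1c (20567), and *Cpxm1*, at 331 CPM, was higher in MedFb2a (610). Since the labels were made from the same counts, levels against other labels are a description without a test. *Igf1*, encoding insulin-like growth factor 1, stood at 180 CPM at E12.5 and 1494 at E13.5, at 678 and 716 at E16.5, at 1189 and 1081 at P0 and at 1631 and 1728 at W4. CapFb3 ranked first of the labels for *Igf1* in 7 of 8 libraries, E12.5 being the exception, where its rank was 6, behind CapFb1b at 516 CPM. *Gdf10*, which encodes a secreted member of the TGF-β superfamily, was at 48.3 CPM in the E12.5 library and 121.8 in that of E13.5, at 360 and 367 at E16.5, at 674 and 373 at P0 and at 298 and 391 at W4. Its rank in CapFb3 was 3 at E12.5, 11 at E13.5 and first in the 6 later libraries. *Olfml3*, encoding a secreted matrix glycoprotein, lay between 246 and 477 CPM and was highest in CapFb3 in all 8 libraries. At W4 it reached 429 ± 68.4 CPM (SD, n = 2) against 365 CPM in CapFb2a, a gap no larger than the spread of the replicates. From E16.5 onward CapFb3 thus ranked first for *Igf1*, *Gdf10* and *Olfml3*, which describes how the label was made and does not test it.

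**Figure D1:**
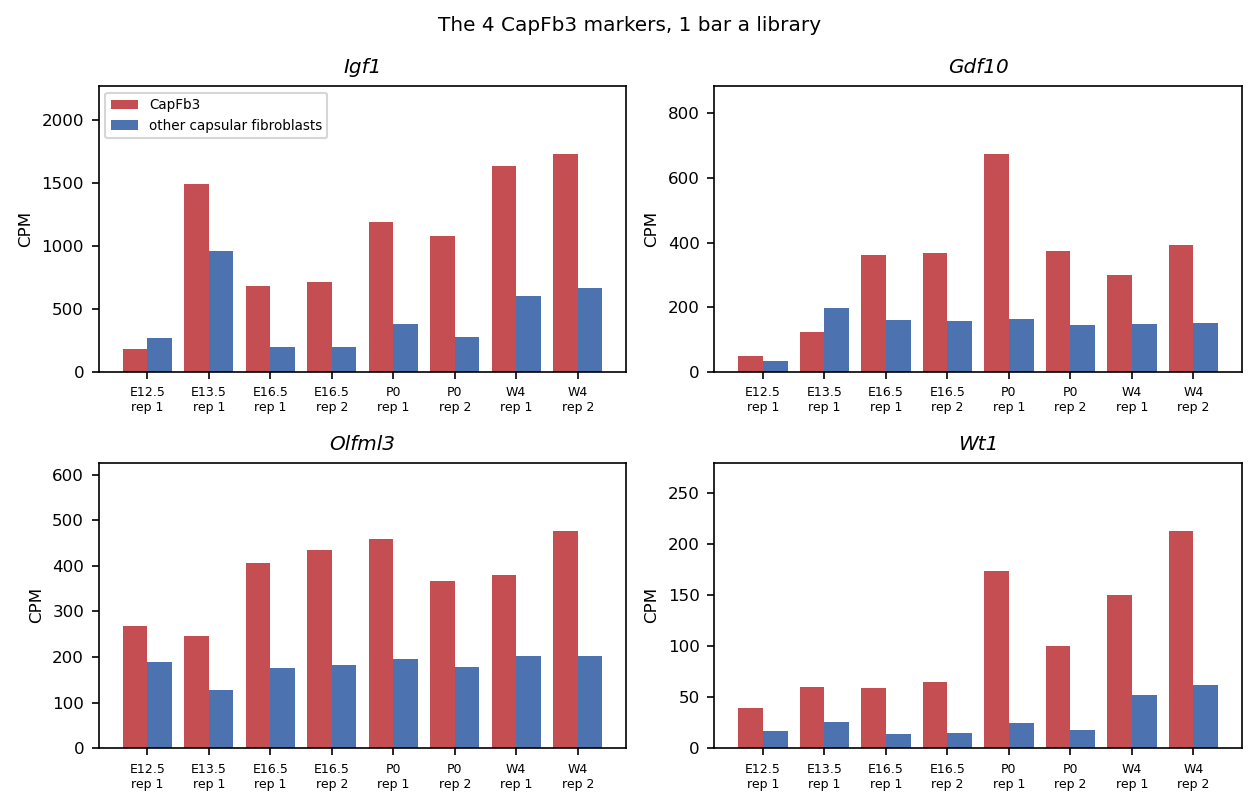
CPM of the 4 CapFb3 markers (vertical axes, linear) in each library of the age series (horizontal axes), 1 bar for the summed CapFb3 cells and 1 for the summed cells of the other 6 capsular labels. From E16.5 onward the CapFb3 bar is the higher in every panel, while at E12.5 *Igf1* and at E13.5 *Gdf10* are lower in CapFb3.

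Single cells gave the same picture. Cells with at least 1 UMI of each of the 4 markers made up 6.02% of CapFb3 at E12.5 and 17.5% at E13.5, 44.0 and 52.3% at E16.5, 64.2 and 50.3% at P0 and 67.1 and 82.5% at W4. Over all libraries this was 616 of 1226 cells (50.2%), against 22.8% in CapFb2b, the next of the fibroblast labels counted, 12.3% in CapFb4, 3.53% in mesothelium and 0.380% in capillary endothelium (EnC). CapFb1b and the medullary labels were not counted. At W4 CapFb2b stood at 38.9 and 36.0%. At least 3 of the 4 markers were seen in 81.4% of CapFb3 cells and 63.3% of CapFb2b cells, and 3 CapFb3 cells showed 0 of them. By this measure the labels were close at E12.5, with 22.9% in CapFb3 and 21.4% in CapFb2b. At W4 the shares were 92.4 and 96.8% in CapFb3 and 89.3 and 78.9% in CapFb2b. Defining genes of 4 other lineages were low in the summed CapFb3 cells. The 6 endothelial markers together lay between 20.2 and 51.0 CPM (24.4 to 54.5 in the other capsular fibroblasts), the 6 haematopoietic markers between 3.89 and 37.1, the 6 epithelial markers between 2.01 and 34.7, and the 5 neural crest markers between 1.61 and 12.8 CPM. Higher sums were found for the 8 markers of mural cells, at 117 to 289 CPM (157.99 to 809 in the other capsular fibroblasts), and for the 5 erythroid markers, at up to 447 CPM.

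*Wt1* was at 39.2 CPM in CapFb3 at E12.5 and 59.9 at E13.5, at 59.3 and 65.1 at E16.5, at 172.9 and 99.8 at P0 and at 150 and 213 at W4. In each of the 8 libraries CapFb3 ranked second, behind mesothelium, whose level was 117 to 435 CPM (the lowest and the highest from the 5 and 2 mesothelial cells of E16.5). At W4 the mean was 181 ± 44.4 CPM in CapFb3 and 402 ± 10.7 in mesothelium (SD, n = 2), followed by CapFb2b with 118 ± 20.9 and CapFb2a with 72.4. The other 6 capsular labels together held 14.1 to 25.9 CPM before W4 and 52.6 and 62.3 at W4, so that in each library CapFb3 lay above them. A UMI of *Wt1* was found in 59.6% of CapFb3 cells (731 of 1226), in 38.2% of CapFb2b, in 44.9% of CapFb4, in 0.952% of MedFb1b and in 94.2% of mesothelium. In EnC, which should lack the gene, the share was 1.39% (33 of 2366 cells), at a median of 12069.5 UMIs per cell against 12909 in CapFb3. After thinning each cell to 2000 UMIs, the shares were 19.6% in CapFb3, 10.5% in CapFb2b, 6.598% in CapFb4, 54.3% in mesothelium and 0.257% in EnC. Within CapFb3 the share was 24.1% at E12.5, 37.5% at E13.5, 49.3 and 58.1% at E16.5, 68.98 and 55.3% at P0 and 77.2 and 88.0% at W4, and the thinned shares followed with 4.82, 8.37, 13.3, 12.8, 26.3, 17.4, 26.6 and 33.6% in the same order. The shares over all libraries mix the ages, and a larger share of CapFb2b than of CapFb3 cells came from E12.5 and E13.5. By library CapFb2b held *Wt1* in 18.5, 25.7, 32.0, 42.3, 37.2, 34.2, 74.5 and 73.6% of cells, lower than CapFb3 each time, but at W4 replicate 1 (exact 95% binomial interval 66.7 to 81.3%) its interval overlapped that of CapFb3 (66.4 to 85.9%), and the thinned shares of CapFb2b at W4 were 24.2 and 24.8%.

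Of the genes that define mesothelium *Upk3b*, *Msln*, *Krt19* and *Lrrn4* were near 0 in the same cells, whereas others, such as *Nkain4* and *Krt18*, were not. At W4 CapFb3 held 36.1 ± 7.67 CPM of *Nkain4* (SD, n = 2), against 28.4 in CapFb2b and 1682 in mesothelium. It also held 18.1 CPM of *Cldn15* (561 in mesothelium) and 14.7 of *Krt18* (281 in mesothelium). Both lay within the range of the other capsular labels, 1.11 to 42.5 CPM for *Cldn15* and 7.70 to 19.6 for *Krt18*. *Upk3b*, encoding a uroplakin, gave 2, 0, 0, 1, 11, 1, 1 and 5 UMIs in the 8 libraries (0 to 3.15 CPM), where mesothelium held 1028 to 2358 CPM. *Msln*, the mesothelin gene, was at 0 in all CapFb3 libraries except those of P0, with 1.43 and 0.832 CPM, whereas mesothelium held 0 and 20.3 CPM at E12.5 and E13.5, then 432 to 1169 CPM from E16.5. *Krt19* reached at most 3.44 CPM in CapFb3 (194 to 2207 in mesothelium) and *Lrrn4* at most 0.299 CPM (81.3 to 601). The 13 mesothelial markers other than *Wt1*, *Rspo1* and *Cxcl13* summed to 201 CPM at E12.5 and 85.3 at E13.5, of which *Nkain4* made 154.95 and *Krt18* 36.5 CPM at E12.5, and to 47.0 to 91.6 CPM at the later ages. This was 9.80% of the mesothelial sum at E12.5, 3.51% at E13.5 and 0.634 to 1.22% afterwards, and the other capsular fibroblasts stood at 56.2 to 126.7 CPM.

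Most CapFb3 cells with *Wt1* held no transcript of *Upk3b*, *Msln*, *Krt19* or *Lrrn4*. Other mesothelial markers, such as *Nkain4*, were not counted in this way. Among the 731 CapFb3 cells with a *Wt1* UMI, 30 (4.10%) held a UMI of *Upk3b*, *Msln*, *Krt19* or *Lrrn4*, and among the 495 cells without one 8 did (1.62%), at medians of 13451 and 11939 UMIs per cell. In CapFb2b the shares were 5.55 and 2.91%, so that this contrast was not particular to CapFb3. Of the 30 CapFb3 cells 13 came from P0 replicate 1, the library with most mesothelial cells. The part of transcripts from other cells in these shares was not tested. A single CapFb3 cell, from P0 replicate 1, held 3 or more such UMIs, 15 in all. In mesothelium 475 of 481 cells held at least 3, and in CapFb2b 7 cells did.

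**Figure D2:**
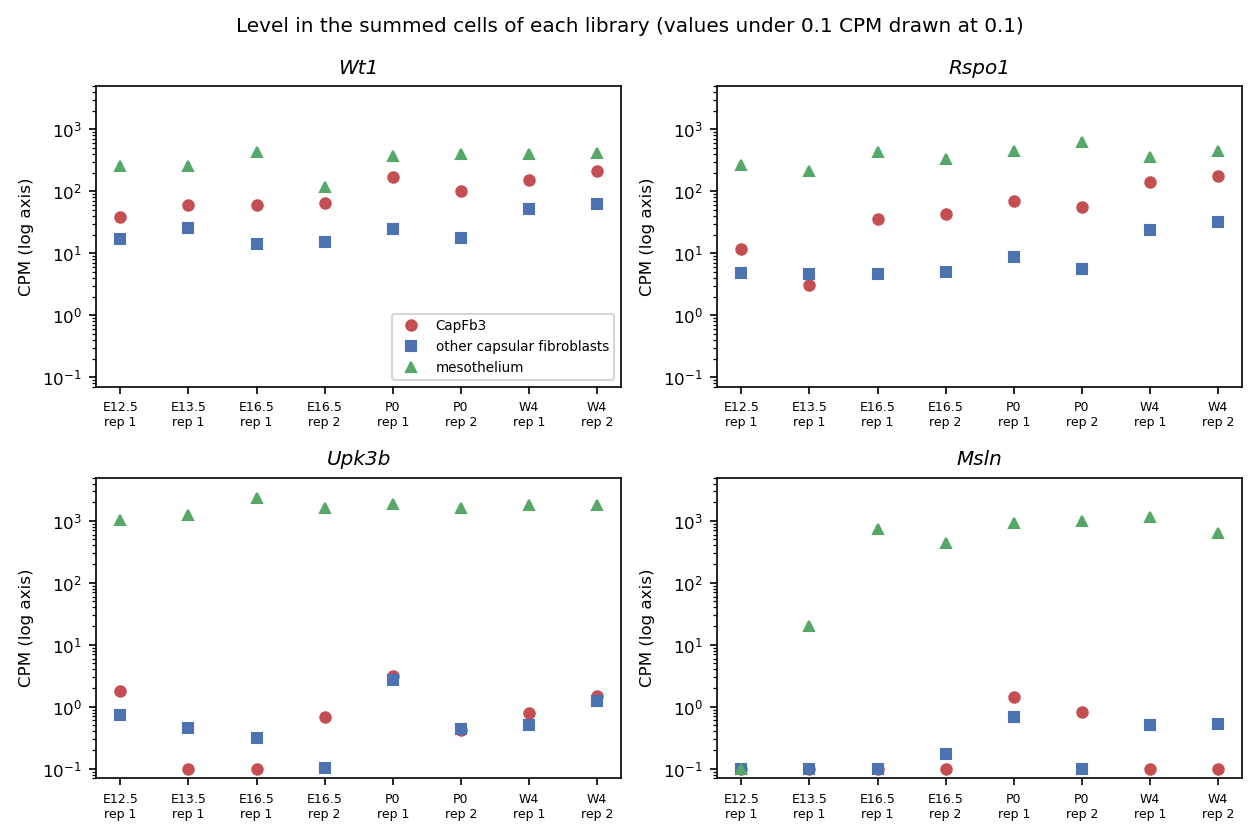
CPM (logarithmic axes, values under 0.1 drawn at 0.1) of *Wt1*, *Rspo1*, *Upk3b* and *Msln* in the summed cells of each library, for CapFb3 (circles), the other capsular fibroblasts (squares) and mesothelium (triangles). CapFb3 lies between the other capsular fibroblasts and mesothelium for *Wt1* in all 8 libraries and for *Rspo1* in 7. For *Upk3b*, and from E16.5 onward for *Msln*, CapFb3 lies with the other capsular fibroblasts, far below mesothelium. At E12.5 *Msln* was detected in neither CapFb3 nor mesothelium.

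Genes held in common by CapFb3 and mesothelium were ranked at W4 by the lower of their levels over the highest of the other 17 labels. *Mapk13*, encoding the kinase p38δ, led with 34.3 ± 22.3 CPM in CapFb3 and 28.5 in mesothelium against 8.60 in CapFb2b, although its libraries ran from 0 at E16.5 to 50.1 CPM at W4. *Trf*, the transferrin gene, reached 251 ± 164.97 CPM in CapFb3 and 833 in mesothelium, with 92.9998 in the next label. *Rspo1*, encoding R-spondin 1, a secreted enhancer of Wnt signalling, stood at 158.01 ± 27.3 CPM in CapFb3 and 406 in mesothelium, and at 60.6 in CapFb2b. Its level in CapFb3 by library was 11.8 and 3.11 CPM at E12.5 and E13.5, then 35.7 and 42.98 at E16.5, 68.7 and 54.9 at P0 and 138.7 and 177 at W4. It ranked second behind mesothelium in 7 libraries and at rank 5 at E13.5. A *Rspo1* UMI was seen in 41.7% of CapFb3 cells and 95.01% of mesothelial cells, and in 0.592% of EnC.

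*Prlr*, the prolactin receptor gene, was higher in CapFb3 than in every other label in all 8 libraries, with 42.7 CPM at W4 against 22.0 in mesothelium. The homeobox gene *Hoxa5* was at 124.5 and 169 CPM in CapFb3 and mesothelium and at 82.3 in CapFb2b, and the pore-forming *Gsdme* at 36.7, 69.5 and 25.8. *Gm12840*, *Arhgap28* and *Arl5b* completed the list with *Wt1*. Some gaps to the next label were within the spread of the replicates (SD, n = 2). *Arl5b* stood at 44.3 ± 19.3 CPM in CapFb3 and 30.3 ± 7.09 in CapFb1c. *Prlr* stood at 22.0 ± 15.4 in mesothelium and 13.0 ± 14.4 in proliferating cells. The chemokine gene *Cxcl13* did not enter this list. Its CapFb3 levels ranged from 33.7 CPM at E12.5 to 2089 at E16.5 replicate 1 and from 121 to 858 between the W4 replicates. In each library CapFb1c or CapFb2b lay above CapFb3, and mesothelium held 0 to 25.3 CPM before W4 and 904 and 1326 at W4. The 10 CapFb3 cells with most *Cxcl13* held 43.3 to 96.0% of its CapFb3 UMIs from E13.5 onward. At E12.5 only 8 CapFb3 cells held any. *Aldh1a2*, encoding the enzyme that makes retinoic acid, was at 176 CPM in CapFb3 at E12.5, 63.5 at E13.5, 14.6 and 10.1 at E16.5, 4.01 and 2.08 at P0 and 0 and 0.299 at W4, while mesothelium kept 292 to 726 CPM.

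At W4, 97 genes of at least 20 CPM were highest in CapFb3 in both libraries, and the 20 with the largest ratio to the next label are its leading genes. *Fndc5*, encoding the membrane protein from which irisin is cut, stood at 56.2 ± 27.0 CPM, 13.7 times the 4.10 CPM of CapFb1b. By library it was at 45.6 and 47.1 CPM at E12.5 and E13.5, then 22.7 and 16.8 at E16.5, 73.3 and 66.96 at P0 and 37.1 and 75.2 at W4. At W4 21.5 and 42.9% of CapFb3 cells held a UMI of it, and in W4 replicate 1 the 10 highest cells held 84.8% of its 46 UMIs. *Hp*, encoding haptoglobin, which binds free haemoglobin, reached 69.3 ± 21.5 CPM against 9.42 in CapFb1c, but 365 CPM in P0 replicate 2. Its UMIs were concentrated in few cells, as the 10 highest held 80.2% of them there and 85.1 and 62.5% in the W4 libraries. At W4 24.1 and 27.2% of cells had any. *Slc7a10*, a transporter of neutral amino acids, was at 103.1 ± 6.96 CPM, 3.03 times CapFb2b.

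Several enzymes stood among the leading genes. The aldehyde oxidase gene *Aox3* was first in CapFb3 in all 8 libraries and reached 147 ± 35.3 CPM at W4, 2.76 times CapFb1c. *Sult1e1*, the oestrogen sulfotransferase gene, had no UMI in the 6 libraries before W4 and then 20.2 and 55.8 CPM. *Cbs*, encoding cystathionine β-synthase, stood at 24.1 CPM against 6.04 in proliferating cells. *Alkal2*, encoding a secreted ligand of the ALK and LTK receptors, stood at 107.8 ± 8.78 CPM (47.6 in pericytes) and *Vegfa*, the vascular endothelial growth factor gene, at 191.5 ± 14.2 CPM (84.6 in CapFb2b). The matrix protein gene *Vit* was at 148.6 CPM against 69.8 in mesothelium and *Kazald1* at 124.9 against 45.5 in CapFb2a. *Ear2*, *Eif3j2*, *Mrap*, *Ptgfr*, *Adamts15*, *Prlr*, *Bmyc*, *6330403K07Rik* and *Samd5* were further leading genes, at ratios of 1.85 to 2.63. *Sox9*, which encodes a transcription factor of cartilage and organ buds, ranked first in CapFb3 in 4 libraries, with 36.3 to 102.997 CPM over all 8.

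**Figure D3:**
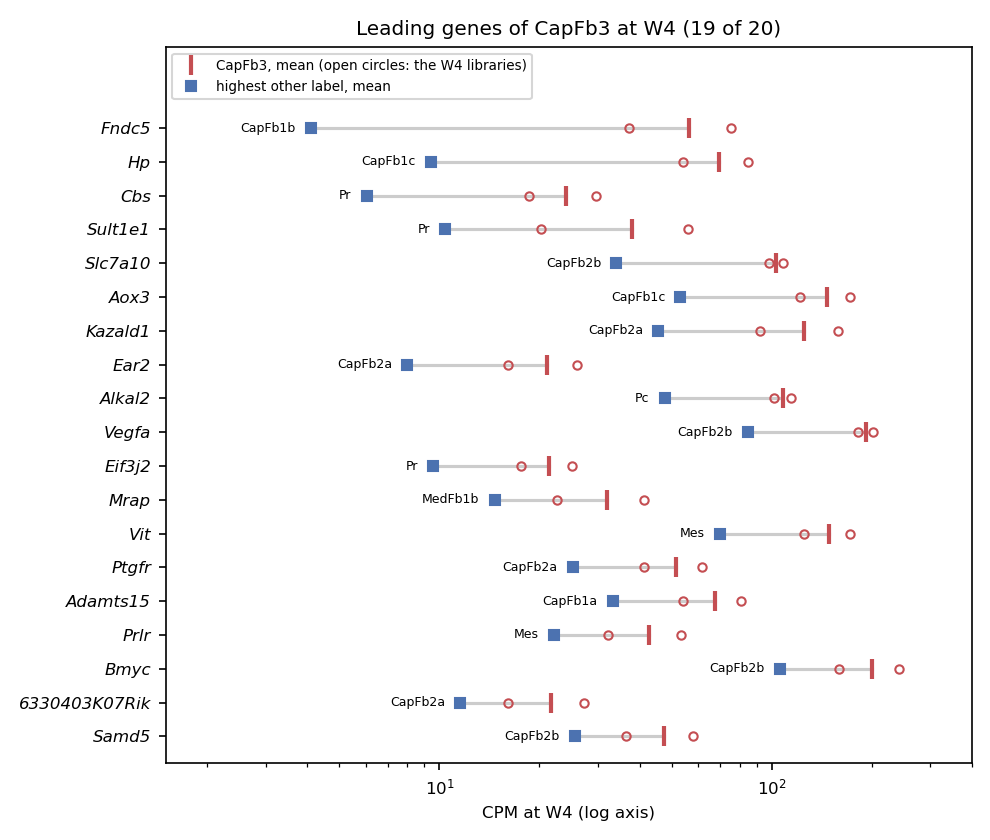
CPM at W4 (logarithmic axis) of 19 of the 20 leading genes: mean of the W4 libraries in CapFb3 (bar, with each library as an open circle) and mean of the highest other label (square, named). *Fndc5* has the widest gap, 13.7 times the next label, and the gaps narrow to 1.85 times at *Samd5*, where the lower CapFb3 library still lies above the square.

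Whether transcript levels changed with age within CapFb3 was tested on the summed UMIs with edgeR's quasi-likelihood test. Over the 5 ages 4859 of 12027 genes passed (40.4%) at an adjusted p under 0.05, and the ages with a single library, E12.5 and E13.5, were assumed to vary like the later ones. *Igf1* (adjusted p = 9.03e-06), *Gdf10* (0.000648), *Olfml3* (0.00526), *Wt1* (0.0018) and *Rspo1* (2.01e-05) were among them. *Dcn*, encoding the proteoglycan decorin, passed with an adjusted p of 1.21e-07. It stood at 38.3 CPM at E12.5, 1673 at E13.5, 8680 and 8768 at E16.5, 12404 and 12161 at P0 and 18939 and 18739 at W4. Without E16.5 replicate 1, E16.5 replicate 2 or W4 replicate 2 the count was 3104, 2946 or 3102 genes.

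From P0 to W4, most of the MHC, interferon-stimulated and complement genes tested rose in CapFb3, and most of the imprinted and proliferation genes fell. 1238 of 12027 genes were higher at W4 (10.3%) and 1061 lower (8.82%), with a median change over all genes of -0.02 on the log2 scale. The complement gene *C3* rose from 79.3 and 178 CPM to 2920 and 3187 (log2 fold change 4.70 ± 0.43 (SE), adjusted p = 0.000401). *Inmt*, a methyltransferase gene, went from 1.72 and 2.08 CPM to 164.5 and 142 (6.43 ± 0.23). *Ly6a*, encoding the surface antigen Sca-1, rose from 46.7 and 56.98 CPM to 979 and 592. In these genes the P0 and W4 libraries did not overlap.

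The libraries of W4 carry much of this count. Without W4 replicate 1, 1174 genes passed, and without W4 replicate 2, 910, whereas 2459 and 2137 passed without P0 replicate 1 or 2. DESeq2 called 874.

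Of the markers, *Igf1* rose from P0 to W4 by 0.69 ± 0.11 on the log2 scale (adjusted p = 0.00402). *Wt1* (0.55 ± 0.25, adjusted p = 0.166), *Gdf10* (-0.47 ± 0.25, 0.215) and *Olfml3* (0.18 ± 0.16, 0.458) did not pass. Of 20 leading genes 12 were higher at W4 and 1, *6330403K07Rik*, lower, with a median of 1.10 against -0.02 over all genes, but these genes were chosen for their level at W4, so that this count supports nothing. *Alkal2* was at 6.30 and 8.73 CPM at P0 and 102 and 114 at W4 (3.99 ± 0.25, adjusted p = 6.63e-05). *Sult1e1* was at least 90.8-fold higher at W4, taking 3 counts over the P0 libraries as the limit of its zeros. Of the 10 genes shared with mesothelium, which were likewise chosen for their level at W4, 2 were higher, *Rspo1* (1.48 ± 0.18, adjusted p = 0.00129) and *Trf* (2.36 ± 0.64, 0.0348). *Trf* did not pass without W4 replicate 2 (1.39, adjusted p = 0.254), and of the leading genes *Slc7a10*, *Ear2*, *Eif3j2*, *Vit*, *Ptgfr* and *Bmyc* did not pass without that replicate either, nor *Sult1e1* by DESeq2 (adjusted p = 0.292). Of the mesothelial markers 7 of 16 had counts enough to be tested, and only *Rspo1* passed.

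Imprinted genes fell, whereas the IGF axis moved in both directions. Of 15 imprinted genes that regulate fetal growth 11 fell and 0 rose (median -2.34). *Dlk1*, encoding a noncanonical Notch ligand, dropped from 3679 and 5042 CPM to 40.3 and 97.6 (-5.79 ± 0.38, adjusted p = 7.50e-05). *Igf2* went from 61.3 and 49.9 CPM to 4.03 and 0.299, *Mest* from 592 and 998 to 75.8 and 54.03, and *Cdkn1c*, a brake on the cell cycle, from 1364 and 984 to 191.9 and 193. The noncoding *H19* (-2.34) and *Meg3* (-1.90) fell as well. In the IGF axis 8 of 16 tested genes rose and 3 fell. *Igfbp6* rose from 112.8 and 36.6 CPM to 1158 and 545, *Igfbp7* from 1018 and 717 to 2169 and 2872, and *Igfbp3* from 533 and 294 to 1202 and 662. *Igfbp5* fell from 538 and 496 to 215 and 142.99, and *Igfbp2* had no UMI at W4, at least 22.3-fold lower. *Insr* rose by 1.18 and *Igf1r* did not pass (0.17 ± 0.16, adjusted p = 0.493).

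Of 15 proliferation genes 12 fell and 0 rose (median -1.98). *Top2a* went from 21.2 and 18.3 CPM to 4.03 and 3.58, and *Mki67* from 11.7 and 8.73 to 1.61 and 2.69. Further genes were named for the size of their change. *Sox11*, *Hmga2*, *Adamts18*, *Ly6h*, *Nefm* and *Col11a1* had no UMI at W4 and were at least 24.1, 5.97, 58.6, 51.1, 3.89 and 47.2-fold lower. Of these *Hmga2*, *Adamts18*, *Ly6h* and *Nefm* did not pass without W4 replicate 2. *Agtr2*, the angiotensin II type 2 receptor gene, dropped from 154.6 and 371 CPM to 4.03 and 2.69. *Car3*, encoding carbonic anhydrase 3, passed (-8.38 ± 1.495, adjusted p = 0.00655) but rested on few cells. In the P0 libraries 14 cells (5.11%) and 24 cells (14.9%) held a UMI of it, and without W4 replicate 2 it did not pass (-7.01, adjusted p = 0.0786).

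Among immune genes, 11 of 17 tested MHC and antigen presentation genes were higher at W4 and 0 lower (median 1.67), among them the class I gene *H2-K1*, from 14.0 and 46.2 CPM to 412 and 429, *H2-D1*, from 50.4 and 64.9 to 586 and 571, and the immunoproteasome subunit gene *Psmb8*, from 23.5 and 22.9 to 87.1 and 99.1. Of the interferon-stimulated genes 13 of 20 rose, *Ifit3* by 1.97, and 1 fell, *Irf1*, from 341 and 397 CPM to 84.7 and 150. Of the complement genes 9 of 15 rose and 0 fell (median 1.80), among them *C4b*, from 28.6 and 55.3 CPM to 126.6 and 233. DESeq2 called 10 of the 17, 4 of the 20 and 9 of the 15 genes of these lists.

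Secreted signals moved in both directions. *Ccl19*, a ligand of CCR7, rose from 1.43 and 1.66 CPM to 17.7 and 33.7 and *Ccl11* from 61.3 and 173.4 to 374 and 382, while *Cxcl12*, the ligand of CXCR4, fell from 415 and 1048 to 195 and 269. Of 17 chemokine genes 4 rose and 2 fell. *Flt3l*, encoding the cytokine FLT3 ligand, rose from 5.15 and 4.99 CPM to 19.4 and 16.7. *Ptn*, the pleiotrophin gene, fell from 4220 and 4202 CPM to 282 and 116, and *Vegfa* rose from 77.6 and 99.8 to 181 and 201. In the list of cytokines and growth factors 8 of 31 genes rose and 7 fell.

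Of the Wnt ligands and modulators 3 of 21 rose and 3 fell, shares of the order of those over all genes. The ligand gene *Wnt5a* went from 69.3 and 56.1 CPM to 248 and 178.8 and *Axin2*, a target of the pathway, from 12.9 and 7.07 to 39.5 and 27.2. *Rspo2* had no UMI at W4, and the antagonist genes *Sfrp1* and *Dkk2* fell. In the BMP and TGF-β list 14 of 34 rose and 3 fell, with *Ltbp4*, which holds latent TGF-β in the matrix, at 171 and 104 CPM at P0 and 506 and 443 at W4, and *Fst*, encoding the activin antagonist follistatin, at 217 and 196 and then 351 and 252. In the retinoic acid list 2 of 18 rose, *Aldh1a1* and *Rarres2*, and 2 fell, *Aldh1a2* and *Crabp1*, shares near those over all genes. Of the FGF and PDGF genes 5 of 14 rose, both PDGF receptor genes among them, and 0 fell. Of 54 transcription factor genes 3 rose and 5 fell, shares of the order of those over all genes. DESeq2 called fewer genes in several of these lists, 6 of 34 in BMP and TGF-β, 2 of 18 in retinoic acid, 3 of 54 transcription factors, 3 of 17 chemokines and 8 of 31 cytokines and growth factors.

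Matrix genes were divided by type. 6 of 12 small leucine-rich proteoglycan genes rose and 0 fell, *Dcn* by 0.74 ± 0.08 (adjusted p = 0.000654). 6 of 13 basement membrane genes rose and 0 fell, such as *Hspg2*, the perlecan gene, from 108.2 and 93.2 CPM to 266 and 297, and *Lama2*, a laminin chain gene, from 67.3 and 51.1 to 257 and 204. Of the collagens 9 of 27 rose, *Col15a1* from 431 and 268 CPM to 981 and 1159, and 6 fell, *Col1a1* from 7296 and 7330 to 4376 and 3586. In the list of matrix proteases and their inhibitors 14 of 28 rose and 4 fell, with *Pcolce2*, an enhancer of procollagen cleavage, from 10.9 and 9.57 CPM to 209 and 134.03. Elastic fibre and microfibril genes gave 9 risen and 3 fallen of 18.

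**Figure D4:**
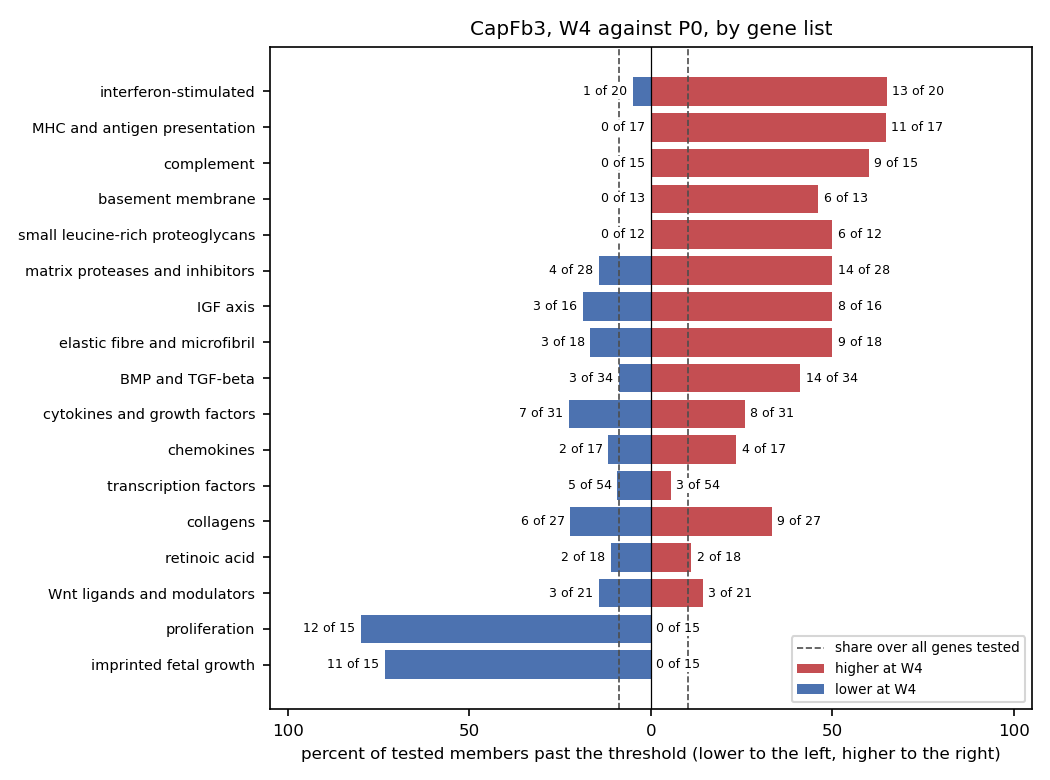
Share of the tested genes of each list that passed in CapFb3 at W4 against P0, higher to the right and lower to the left (axis in percent of tested members, counts printed), with dashed lines at the shares over all genes, 10.3% and 8.82%. Immune lists lie to the right (13 of 20, 11 of 17 and 9 of 15), while the proliferation (12 of 15) and imprinted (11 of 15) bars lie to the left.

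Signs of other cells and of handling were read in the same comparison. 3 of 4 tested erythroid genes were higher at W4, *Hbb-bs* with 84.5 and 25.4 CPM at P0 and 133 and 239 at W4, and the sum of the 5 erythroid markers ran from 0 to 447 CPM in CapFb3 and to 3689 in the other capsular fibroblasts. Of the 25 immediate early and dissociation genes 3 were higher, the heat shock genes *Hspa1a*, *Hspa1b* and *Dnajb1*, and 3 lower, *Egr2*, *Klf2* and *Nfkbia*. Both shares lay near those over all genes, 10.3% and 8.82%. *Hspa1b* stood at 38.1 and 12.48 CPM at P0 and at 334 and 426 at W4. Their part in the results was not tested. *Hspa1a* and *Hspa1b*, and the paired haemoglobin genes, are near-identical copies whose reads may be split unevenly. Strand is kept by the assay, but overlapping genes were not examined.

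Around birth fewer differences passed. At P0 against E16.5, 45 of 12027 genes were higher (0.374%) and 13 lower (0.108%), in all 58, against 850 of 18102 without a filter on low counts. *Igf1* was higher at P0 (0.71 ± 0.11, adjusted p = 0.0356), as were *Dcn* (0.50 ± 0.08, 0.0356) and *Cpxm1* (0.86 ± 0.12, 0.0267), a carboxypeptidase-like gene. *Gas6*, encoding the ligand of TAM receptors, went from 5.68 and 6.04 CPM to 118.8 and 39.1, *Tgfbi*, a matrix protein gene, from 5.68 and 8.73 to 370 and 75.3, and *Fbln5*, which assembles elastic fibres, from 95.8 and 98.04 to 442 and 263. *Mest* and *Cdkn1c* of the 15 imprinted genes were lower, by 1.63 and 1.20 on the log2 scale. *Wt1* (1.14 ± 0.28, adjusted p = 0.117) and *Fndc5* (1.85 ± 0.34, 0.0592) did not pass, although for both the P0 libraries lay above the E16.5 libraries. 0 of 15 proliferation genes passed by edgeR, while 4 had an unadjusted p under 0.05 and DESeq2 called 1.

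9 of the 45 higher genes were immediate early or dissociation genes, of 25 in that list, and DESeq2 called 15 and 23 had an unadjusted p under 0.05. *Fos* stood at 1718 and 2082 CPM at E16.5 and 8685 and 6120 at P0 and *Jun* at 1382 and 1659 and then 5074 and 4495, and in the other capsular fibroblasts, where these ages were not compared by a test, *Fos* was at 2243 and 2257 and then 5794 and 4071 and *Jun* at 2311 and 2384.5 and then 4822 and 3971. Their part in the comparison was not tested. Without either E16.5 replicate 0 genes passed (1061 without replicate 1 and 1142 without replicate 2 had an unadjusted p under 0.05), without P0 replicate 1 145 did and without P0 replicate 2 610, and DESeq2 called 87 higher and 26 lower.

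Whether CapFb3 changed from P0 to W4 otherwise than the rest of the capsule was tested as an interaction. The comparator was the summed cells of CapFb1a, CapFb1b, CapFb1c, CapFb2a, CapFb2b and CapFb4 of the same libraries. The mix of these labels shifted with age, as CapFb2a held more cells than CapFb2b in both P0 libraries and fewer in both W4 libraries. A change in the summed cells can thus include a change in their mix. As the labels were made from the same counts, a difference can also include a change with age in which cells drew the label. The part of either in the differences below was not tested. 84 of 13164 genes had the higher change in CapFb3 (0.638%) and 51 the lower (0.387%), so that for most genes no difference in the change was called. The count was 352 without P0 replicate 1, 282 without P0 replicate 2, 248 without W4 replicate 1, 60 without W4 replicate 2 and 708 of 20105 without a filter on low counts.

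Among the leading genes 3 of 20 differed, all with the higher change in CapFb3, a direction that choosing them for their CapFb3 level at W4 favours, so that the count supports nothing. *Fndc5* was at 73.3 and 66.96 CPM at P0 and 37.1 and 75.2 at W4 in CapFb3, but at 15.9 and 11.4 and then 2.16 and 3.91 in the other capsular fibroblasts (difference 1.90 ± 0.26, adjusted p = 0.00863). *Slc7a10* went from 84.5 and 75.7 CPM to 108.1 and 98.2 in CapFb3 and from 36.1 and 29.5 to 16.9 and 16.3 in the others (1.3999 ± 0.15, 0.0026). *6330403K07Rik* fell in CapFb3, but by less than in the others (1.61 ± 0.20, 0.005). *Fndc5* and *6330403K07Rik* did not pass without W4 replicate 2 (adjusted p = 0.181 and 0.156).

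For *Wt1* the difference had the opposite sign. Its level was 172.9 and 99.8 CPM at P0 and 150 and 213 at W4 in CapFb3 and 24.7 and 17.7 and then 52.6 and 62.3 in the other capsular fibroblasts (-0.95 ± 0.16, adjusted p = 0.0222). The ratio of *Wt1* between CapFb3 and the rest of the capsule was thus smaller at W4, though not its difference in CPM, while CapFb3 stayed the higher in each library. *Dcn* (-0.63 ± 0.05, adjusted p = 0.000829) and *Cpxm1* (-1.13 ± 0.15, 0.00642) had a smaller ratio as well, *Dcn* from 12404 and 12161 CPM against 7056 and 6842 at P0 to 18939 and 18739 against 17062 and 17116 at W4. Against CapFb2b alone, a comparison added after the data had been seen, *Wt1* (-0.62, adjusted p = 0.115), *Dcn* (-0.19, 0.0669) and *Cpxm1* (-0.61, 0.0884) did not pass.

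Of 21 Wnt ligands and modulators 3 differed, all 3 antagonist genes. *Sfrp1* fell from 266 and 345 CPM to 162 and 148.7 in CapFb3 and was at 228 and 252 and then 434 and 477 in the other capsular fibroblasts (-1.85 ± 0.13, adjusted p = 0.000829). *Dkk2* fell from 63.6 and 106.9 CPM to 27.4 and 16.7, against 72.8 and 69.99 and then 104.9 and 101.1 in the others (-2.49 ± 0.30, 0.00452). The other was *Sfrp2* (-1.31). *Ccnd1*, the cyclin D1 gene, went from 72.4 and 43.7 CPM to 12.1 and 6.27 in CapFb3 and from 49.6 and 32.999 to 53.7 and 51.5 in the others (-3.11 ± 0.26, 0.00109). Against CapFb2b alone *Ccnd1* did not pass (-1.19, adjusted p = 0.0823), and 0 of 15 proliferation genes were called by edgeR or by DESeq2, with 2 at an unadjusted p under 0.05.

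The adhesion gene *Sele* gave a difference of 4.20 ± 0.38 (adjusted p = 0.00157) through the other capsular fibroblasts, which held 118.6 and 227 CPM at P0 and 13.6 and 12.46 at W4, whereas CapFb3 held 6.87 and 11.2 and then 5.65 and 15.2. It did not pass without W4 replicate 2. *Dlk1* fell in both, to 12.02 and 15.3 CPM in the others and to 40.3 and 97.6 in CapFb3. *Aoc3*, encoding a vascular adhesion amine oxidase, rose in CapFb3 from 50.4 and 69.9 CPM to 154 and 181 and was at 43.5 and 43.2 and then 31.1 and 32.8 in the others. *Fmo2*, a monooxygenase gene, was at 28.9 and 24.3 CPM and then 196 and 204 in the other capsular fibroblasts and at 25.8 and 24.5 and then 35.5 and 44.2 in CapFb3 (-2.15 ± 0.18, 0.00109), but it did not pass against CapFb2b alone (-1.05, 0.0523). Of the collagens 4 of 28 had the higher change, *Col4a1*, *Col4a2*, *Col6a5* and *Col18a1*, and 1, *Col8a2*, the lower.

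The share of CapFb3 among the labelled cells was lowest at E16.5. It was 4.16% at E12.5 (exact 95% binomial interval 3.32 to 5.13%), 4.47% at E13.5 (3.94 to 5.04%), 1.30% (1.02 to 1.63%) and 1.31% (1.05 to 1.61%) at E16.5, 5.84% (5.19 to 6.55%) and 2.82% (2.40 to 3.28%) at P0, and 3.08% (2.45 to 3.82%) and 6.64% (5.81 to 7.55%) at W4. These intervals cover counting error only, and the replicates of P0 and of W4 lay outside each other's. Over the 5 ages the share did not pass (adjusted p = 0.0787 by edgeR, adjusted over 19 labels), but it did without P0 replicate 1 (0.0279) or P0 replicate 2 (0.0225). W4 against E16.5 passed at 1.90 ± 0.509 on the log2 scale (adjusted p = 0.0385), P0 against E16.5 did not (1.73 ± 0.505, 0.0541), nor did W4 against P0 (0.17 ± 0.488, 0.825). As a percentage of fibroblasts CapFb3 made 7.62, 8.07, 2.40, 2.43, 9.58, 4.61, 5.95 and 11.02% in the same order of libraries.

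The share of mesothelium was also lowest at E16.5. Its 481 cells made 1.0015 and 0.534% at E12.5 and E13.5, then 0.0347 and 0.0759% at E16.5, 4.86 and 0.123% at P0 and 1.248 and 4.80% at W4. The replicate with more CapFb3 was at both P0 and W4 the one with more mesothelium. The part played by dissection or digestion of the capsule was not tested, and shares in captured cells depend on which cells the tissue released.

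**Figure D5:**
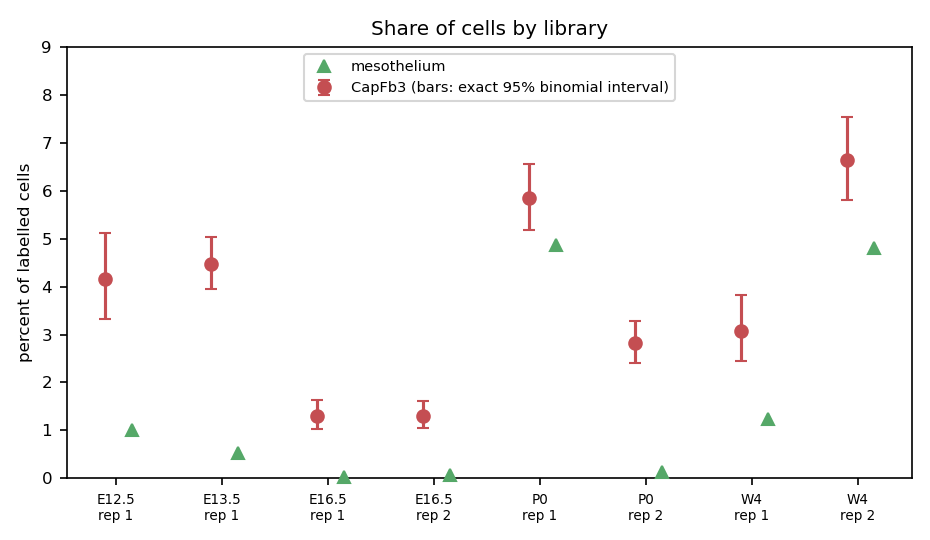
Percent of labelled cells (vertical axis) that are CapFb3 (circles, with exact 95% binomial intervals) or mesothelium (triangles) in each library. CapFb3 is lowest at E16.5, at 1.30 and 1.31%, and both labels are higher in P0 replicate 1 than replicate 2 and in W4 replicate 2 than replicate 1.

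In the newborn set, the transcripts of the deleted genes were looked at first. In the libraries labelled Tbx1+/-Crkl+/- *Crkl* stood at 28.6, 26.02 and 25.5 CPM over all nonepithelial cells, and WT libraries held 22.5, 29.8 and 19.2, and *Tbx1* at 0, 0 and 1.15 CPM against 1.97, 0.419 and 0.853. *Crkl* was thus not lower in the libraries labelled Tbx1+/-Crkl+/-, and reads of the 3′ end may lie outside the deleted part, so that this checks neither label. Among the WT littermates CapFb3 numbered 12, 3 and 24 cells, and in those labelled Tbx1+/-Crkl+/- it numbered 4, 15 and 8, which is 0.702, 0.171 and 0.727% of the nonepithelial cells in WT against 0.457, 0.544 and 0.405%. The groups overlapped, and the log2 difference was -0.227 ± 0.484 (edgeR, adjusted p = 0.722 over 20 labels), or -0.0953 ± 0.523 (0.907) with same-numbered libraries as pairs, so that no change was called in either. It turned to 0.135 without WT replicate 3. In the age series CapFb3 made a larger share at P0, 5.84 and 2.82% of the labelled cells. The cause of this gap was not tested.

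The few newborn cells carried the markers of the label, though not all of its leading genes above the level of the other capsular fibroblasts. The study transferred labels between its datasets on the basis of such transcripts. The levels below thus describe the label and do not test it. Summed over the libraries labelled Tbx1+/-Crkl+/-, *Igf1* gave 501 CPM from 38 UMIs and in WT 720 CPM, and *Wt1* gave 145 CPM from 11 UMIs and 121 from 21. The WT value of *Wt1* rests on single libraries, as 13 of the 21 UMIs lay in WT replicate 2, with 3 cells, and WT stood at 51.9 CPM without it and at 388 CPM without WT replicate 3. Over both groups *Igf1* was at 653 CPM against 185.04 in the other capsular fibroblasts and *Wt1* at 128 against 23.2, while *Upk3b* and *Lrrn4* gave 0 UMIs and *Msln* and *Krt19* 1 each. A count of 0 allows up to 39.5 CPM in the first group and 17.3 in WT. Over both groups *Gdf10* (248 against 152.6 CPM) and *Olfml3* (204 against 123.7) were also higher than in the other capsular fibroblasts. Some leading genes were higher, such as *Prlr* (40.1 against 3.74 CPM) and *Vegfa* (216 against 91.1). Others were lower, such as *Bmyc* (20.04 against 59.7 CPM, from 5 UMIs) and *6330403K07Rik* (12.02 against 42.9, from 3 UMIs). Only 1 library held 20 CapFb3 cells or more, so expression was not tested between genotypes.

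The sorted bulk populations are samples on which the labels were not built, though in bulk RNA fewer cells of a type and less RNA per cell cannot be told apart. At W4, gp38+CD26+ against gp38+CD26- cells gave 288 of 13662 genes higher (2.11%) and 529 lower (3.87%), or 467 and 633 of 14087 without the library S124, and at P0 100 of 13848 higher (0.722%) and 197 lower (1.42%). S124, a gp38+CD26+ library of W4, held 25702 counts where the others of its group held 12315710 to 14645628. In the age series at W4, CapFb3 held 23.2 ± 19.7 CPM of *Dpp4*, the CD26 gene, the lowest mean of the capsular labels (34.8 to 487 in the others), and the share of CapFb3 among the gated cells was not measured. The bulk labels carry a prefix, TXCK or DFCK, 3 of each in a group, whose meaning they do not give. Of the 4 CapFb3 markers 0 were called at W4 by edgeR or DESeq2, with 1 at an unadjusted p under 0.05, and at P0 1, *Gdf10*, lower in gp38+CD26+ (-0.91 ± 0.22, adjusted p = 0.0219). *Wt1* had a lowest, median and highest level of 0, 102 and 141 CPM in gp38+CD26+ at W4, the 0 being that of S124, whose few counts cannot show absence, and of 0, 5.92 and 35.4 in gp38+CD26-, and at P0 of 24.1, 42.6 and 50.7 against 0, 4.70 and 13.6, where the groups did not overlap. The fitted differences, 3.30 ± 1.34 (adjusted p = 0.195; 0.154 without S124) and 3.06 ± 1.39 (0.321), did not pass, nor did they with the prefix as a term (0.103 and 0.3445). *Igf1* had a median of 1186 CPM in gp38+CD26+ and 447 in gp38+CD26- at W4 (1.34 ± 0.69, adjusted p = 0.362; 0.133 without S124).

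Of the 18 leading genes tested between these populations edgeR called 0 at either age. At an unadjusted p under 0.05 stood 2 at W4 and 3 at P0, and DESeq2 called 1 at each age. *Fndc5*, the first of the leading genes, had a median of 0.406 CPM in gp38+CD26+ and 0.566 in gp38+CD26- at W4, and of 5.99 and 0 at P0 (1.85 ± 1.83, adjusted p = 0.801). *Slc7a10* had medians of 40.6 and 4.51 CPM at P0, where the ranges did not overlap (3.21 ± 0.87, adjusted p = 0.0639; 0.03595 with the prefix as a term, when it passed), and 12.48 and 1.44 at W4. *Alkal2* had medians of 26.1 and 3.05 CPM at W4 (2.70 ± 1.01, 0.144; 0.114 without S124). In contrast 10 of 14 mesothelial markers were higher in gp38+CD26+ at W4, *Upk3b* by 7.68 and *Msln* by 9.65, and 0 of 10 at P0 by edgeR (3 at an unadjusted p under 0.05, 1 called by DESeq2). Without S124 it was 9 of 14 at W4, as *Krt18*, at 12334 CPM in that library against a median of 68.9 in its group, did not pass (1.48, adjusted p = 0.241). A median of 2283 CPM of *Upk3b* in gp38+CD26+ at W4 stood against 49.2 at P0. The part of mesothelium in the *Wt1* and *Rspo1* levels of these libraries was not tested.

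With age, gp38+CD26+ cells gave 460 of 11846 genes higher at W4 than at P0 (3.88%) and 404 lower (3.41%), in all 864, and 1641 without S124. *Wt1* was higher at W4 (1.46 ± 0.38, adjusted p = 0.0309; 0.00166 without S124), *Gdf10* lower (-1.46 ± 0.41, 0.0438), and *Rspo1*, with 0 as its median at P0 and 39.3 CPM at W4, higher (7.27 ± 1.27, 0.00251). In the same comparison 10 of 14 mesothelial markers were higher, *Wt1* and *Rspo1* with *Msln*, *Upk3b*, *Krt19* and *Slpi* among them, and 1, *Cxcl13*, lower (median 5.13). In the age series mesothelium held 20.4 and 25.3 CPM of *Cxcl13* at P0 and 904 and 1326 at W4. Of 17 leading genes tested, *Kazald1*, *Alkal2* and *Vit* were higher and 2 lower, among them *6330403K07Rik*. *Vit* had a median of 13.1 CPM at P0 and 89.0 at W4, and *Alkal2* of 7.74 and 26.1. Of the imprinted genes 10 of 13 were lower and 0 higher, of the complement genes 6 of 13 higher and 0 lower, and of the MHC and antigen presentation genes 13 of 16 higher and 0 lower. Of the proliferation genes 2 of 15 were lower. Without S124 these counts were 11 of 13 imprinted, 9 of 14 complement, 11 of 16 MHC and antigen presentation and 4 of 15 proliferation genes. Of the 13 MHC and antigen presentation genes 4, *H2-Aa*, *H2-Ab1*, *H2-Eb1* and *Cd74*, are of the class II pathway, which thymic epithelium and haematopoietic cells also use, and *Ccl25* (8.51) and *Tbata* (8.26), genes of thymic epithelium, and *Cd74* (8.17) were among the 10 largest rises on the log2 scale. The size of these 3 rises rests on S124, which held 11750, 5992 and 36340 CPM of them against group medians of 8.77, 6.38 and 84.7, and without it *Ccl25* (3.28, adjusted p = 0.0956) and *Tbata* (3.35, 0.111) did not pass and *Cd74* did (4.16, 0.00679). Haemoglobin transcripts were also higher in these libraries at W4, and 11 of 24 immediate early and dissociation genes were lower. The part of mesothelium, of these cells and of handling was not tested.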

How the data were processed

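The authors deposited UMI counts per gene and cell with their own cell labels for the age series and the newborn set, and read counts per gene for the bulk libraries. Per the labels and the study's methods, cells rich in genes and with few mitochondrial UMIs were kept and doublets and contaminants were removed before deposit, so that no further filter or doublet caller was applied. The submitters' processing notes list Cell Ranger 3.1.0, STAR 2.5.3a and HTSeq, and the builds mm10 and GRCh38 with no role given, and no coordinates were used.

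UMIs of CapFb3 cells were summed per library. Genes passing edgeR's filterByExpr were scaled by TMM and tested by edgeR 4.0.16 (quasi-likelihood, R 4.3.3) with Benjamini-Hochberg adjustment over all genes tested and a threshold of 0.05. Ages were fitted together over 8 libraries. The age change was compared with that of the other 6 capsular labels with the library as a block. Shares were tested on cell counts per label. Comparisons of levels with other labels carry no test, and the interaction compares changes with age between labels made from the same counts. DESeq2 1.42.0 on the genes edgeR tested (a restriction chosen after seeing the data), RLE scaling, no filter, left-out libraries and the replicate number as a block were alternatives. CPM were computed from these counts in Python 3.11.15 with pandas 2.3.3. The scripts were tested on simulated data with 200 genes changed 2-fold or 4-fold. The changed genes were drawn from those averaging over 10 CPM and all others were left unchanged, so that the recovery rates do not cover lower genes. Of the calls 10% were false at W4 against P0, 12.2% at P0 against E16.5, 9.44% in the interaction and 4% in bulk at W4. In the same order 51, 54, 66 and 17% of the 2-fold changes and 93, 97, 97 and 55% of the 4-fold changes were recovered.

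Of the bulk counts, columns of other samples, 36 in number, were not used, 7.81 to 29.4% of the reads of a library lay in entries of no gene, which were left out, and 37607 of 39179 gene IDs had a symbol. The other 47 bulk libraries held 6793831 to 15852166 counts. In the newborn set same-numbered libraries of both genotypes deviated together (correlations of 0.384, 0.266 and 0.481 over 20 labels), so that their numbers were taken as pairs, and the fit with them as a block is given beside the one without. Intervals and zero limits cover counting error only.

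The cells, gene lists and tests were chosen with earlier results of these data known. Named were the 20 leading and 10 shared genes at 20 CPM or more at W4, the 10 largest called changes in each direction of each comparison at an average log2 CPM of 5 or more, members of the gene lists, and genes the study names for these cells. Some of these genes are not reported here.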

Additional observations from a re-analysis of the deposited data

Results flagged for a closer look

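In 4 of 20 combinations of a gene and a bulk group of 6 libraries 1 library stood far above the others, where chance flags about 1 in 20. They fall in 3 groups. In gp38+CD26- at W4 the library S168 held 1001 CPM of *Igf1* (the next 481) and 140.3 CPM of *Gdf10* (the next 84.4). *Rspo1* reached 1.399 CPM in library S50 of gp38+CD26+ at P0 (the next 0.473) and 0.218 CPM in library S74 of gp38+CD26- at P0 (the next 0.0762).

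The change from P0 to W4 differed between CapFb3 and the summed cells of the other capsular fibroblasts in the following named genes. Values are log2 differences from the interaction test of edgeR. The labels were made from the same counts, and the leading genes among them were chosen for their level at W4, so that the limits given above hold here too. The higher change in CapFb3 was found for *Sele* (4.20), *Rgs5* (2.497), *Dlk1* (2.11), *Aoc3* (2.002), *Sp100* (1.963), *Ly6a* (1.95), *Col18a1* (1.91), *Fndc5* (1.90), *Ifi203* (1.85), *Serpina3g* (1.84), *Fam13c* (1.83), *6330403K07Rik* (1.61) and *Slc7a10* (1.3999). The lower change was found for *Cpxm2* (-5.74), *Ccnd1* (-3.11), *1500015O10Rik* (-2.62), *Ptn* (-2.60), *Dkk2* (-2.49), *Igfbp5* (-2.28), *Fmo2* (-2.15), *Sbsn* (-2.01), *Fibin* (-1.99), *Sfrp1* (-1.85), *Cpxm1* (-1.13), *Wt1* (-0.95) and *Dcn* (-0.63). Against CapFb2b alone *Ptn* turned to 0.22 (adjusted p = 0.623) and *Igfbp5* to 0.94 (0.0111). *Wt1*, *Dcn*, *Cpxm1*, *Ccnd1* and *Fmo2* did not pass against CapFb2b alone. *Rgs5*, a pericyte gene, was at 26.1 and 25.4 CPM at P0 and 45.2 and 75.8 at W4 in CapFb3 and at 141 and 55.4 and then 32.1 and 50.6 in the others. *Cpxm2* was at 13.46 and 1.248 CPM and then 48.4 and 15.2 in CapFb3 and at 2.70 and 0.363 and then 326 and 297 in the others.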

How the results depend on the processing

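As the number of genes tested differs between settings, calls are given as percent of those tested. edgeR called 40.4% over the ages, 19.1% at W4 against P0, 0.482% at P0 against E16.5, 1.03% in the interaction, and in bulk 5.98% at W4, 2.14% at P0 and 7.29% by age. DESeq2, restricted after seeing the data to the genes edgeR tested, called 21.5% (2591 genes), 7.27% (874), 0.940% (87 higher, 26 lower), and in bulk 9.26% (1265), 4.93% (683) and 14.7% (1747). Without a filter on low counts 4.70% (850) passed at P0 against E16.5 and 3.52% (708) in the interaction. Leaving out 1 library gave 23.8 to 50.4% over the ages, 7.98 to 21.5% at W4 against P0, 0 to 5.32% at P0 against E16.5, 0.435 to 2.57% in the interaction, an adjusted p of 0.0225 to 0.407 for the share over ages and a log2 genotype difference in share of -0.579 to 0.135, the last, without WT replicate 3, of the opposite sign. Bulk by age gave 13.2% (1641) without S124. The share of CapFb3 cells with *Wt1* at W4, 82.6% as the mean of its libraries, was 30.1% at 2000 UMIs per cell. Against CapFb2b alone, added after seeing the data, the interaction changed sign for *Ptn* (0.22, adjusted p = 0.623) and *Igfbp5* (0.94, adjusted p = 0.0111). The cause was not tested. The age-series numbers did not pair the libraries (correlations of -0.0200, -0.0157 and 0.00970 over 12027 genes), and a replicate block gave 1.07% at P0 against E16.5 (99 higher, 30 lower) and 2333 genes at W4 against P0. In bulk, library numbers at a constant offset were tried as pairs after seeing the data. Their deviations correlated by 0.0164 to 0.116 over 11967 or 12098 genes, so that they were not taken as pairs, and as a block they left 4.56% of genes at W4 and 1.74% at P0, with 8 of 15 mesothelial markers at W4. The label prefix as a term gave 6.13%, 2.06% and, by age, 7.56%. In the paired newborn set the block gave -0.0953 and changed no call. Of 331 single-gene values at W4 against P0 26 no longer passed, at P0 against E16.5 48 of those for 23 genes, and in the interaction 21 of 208 did not. Expression between genotypes was not run, for want of cells. With 3 to 24 CapFb3 cells per library, depth limits the newborn values.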

Other observations

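Transcripts of *Adipoq*, *Car3* and *Plin1*, genes of adipocytes, came from few CapFb3 cells, whereas *Fabp4* was seen in 52.6 to 74.7% and *Lpl* in 82.7 to 100% of CapFb3 cells in the libraries from E16.5 on, as in CapFb1c (47.0 to 81.03 and 99.5 to 100%). The study lists *Fabp4* among the top genes of EnC, and the part of transcripts from other cells in these shares was not tested. *Adipoq*, encoding the hormone adiponectin, was at 70.6 and 34.9 CPM at E16.5, 6.87 and 120 at P0 and 1.61 and 0 at W4, from 4, 4, 5, 9, 1 and 0 cells, while the other 6 capsular labels together held at most 2.99 CPM. CapFb2b alone held 25.6 CPM in P0 replicate 2, 67 of its 68 UMIs in 1 cell, and 302 CPM of *Car3*, so that such cells were not particular to CapFb3. *Car3* UMIs lay in 11 and 11 cells at E16.5, 14 and 24 at P0 and 3 and 2 at W4, and the 10 highest cells of each library held 94.5 to 100% of them. *Plin1*, encoding the lipid droplet protein perilipin, was seen in 9 cells of P0 replicate 2, the library in which *Hp* also stood at 365 CPM. *Pparg*, a transcription factor gene of adipocytes that other stroma also expresses, was seen in 37.9% of the cells of that library.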
